A study of Homo sapiens with 6 samples.

Results

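The checkpoint kinases and CDC25 phosphatases were described here through 10 genes, taken from the deposited expression values by their symbols: *CHEK1*, *CHEK2*, *WEE1*, *PKMYT1*, *CDC25A*, *CDC25B*, *CDC25C*, *ATR*, *ATM* and *CLSPN*. They are 10 of 21863 gene symbols, and all 10 were listed once with a value above 0 in every library. The study sequenced RNA of Hep G2 cells (labelled HepG2), a line grown from a human liver tumour, to find transcripts bound and lowered by *miR-195* and *miR-497*. Cells were left non-transfected (NT) or were transfected, using a lipid reagent, with 5 nM of a dsRNA mimicking *miR-195* or *miR-497* and collected after 24 hours, while the NT label gives 0 hours. From each of these 3 conditions 1 library of total RNA and 1 library of RNA co-precipitated with an antibody to human Argonaute 2 (Ago2-IP) were made, 6 libraries in all. With 1 library a group there is no spread between replicates, so no test was made and no p-value is given. NT cells are described only as non-transfected, and no library of cells given an unrelated dsRNA was analysed here. Effects of a mimic, of transfection and of time (24 hours against the 0 hours of the NT label) thus cannot be told apart. Both mimics were compared with the same NT libraries.

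These proteins decide when a cyclin-dependent kinase (CDK) may act. WEE1 and PKMYT1 place inhibitory phosphates on CDKs, and the CDC25 phosphatases take them off, which starts DNA replication or mitosis. When DNA is damaged or replication stalls, the sensor kinases ATM and ATR activate CHEK2 and CHEK1, the latter with the adaptor CLSPN (claspin), and the checkpoint kinases then restrain CDC25 proteins. A miRNA loaded in Ago2 finds its targets mainly by pairing of its seed, bases 2 to 8, with the 3′UTR of an mRNA.

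The mature sequences are shown because both mimics carry one seed, so that the same 3′UTR letters serve both. The seed is in capitals, and the sequences are those of RefSeq on GRCh38.p14, where they lie on the minus strand at chr17:7017667-7017687 (*miR-195*) and chr17:7017979-7017999 (*miR-497*).
hsa-miR-195-5p: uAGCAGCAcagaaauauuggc
hsa-miR-497-5p: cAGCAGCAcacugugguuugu
The miRNAs were identical at 12 of 21 positions counted from the 5′ end. Their shared run spans positions 2 to 10 and is bounded by U1C and G11C (the *miR-195* base first).

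The 7 bases that pair with this seed, TGCTGCT, stood in at least 1 annotated 3′UTR of 5 of the 10 genes, *CHEK1*, *WEE1*, *CDC25A*, *CDC25B* and *CLSPN*. The background share was 28.4%, over the 10930 genes with a 3′UTR and a value above 0 in all 6 libraries. With an A after them (an 8-base site) they were present in 3 of the 10 genes, *CHEK1*, *WEE1* and *CDC25A*, and in 5.79% of those 10930. *CDC25A* had already been reported by the authors as a direct target of both miRNAs. The set was chosen with earlier results of these data known. Its shares of genes with a site are thus partly fixed by that choice and are no independent test of enrichment. *CDC25C* had only GCTGCTA, which pairs with 1 base less, at base 18 after its stop codon, while *CHEK2*, *PKMYT1*, *ATR* and *ATM* had none of these words in any annotated 3′UTR. The 6 bases GCTGCT were frequent, in 6 of the 10 genes and 50.5% of the 10930. In the canonical coding sequences TGCTGCT occurred in *ATM*, *CHEK2* and *WEE1* (1 match each) and in *ATR* (2 matches).

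The windows below hold the TGCTGCT sites of the 4 genes of this set that carry such a site and were past 1.5-fold lower in total RNA. They are exonic 3′UTR sequence of GRCh37 (the assembly also called hg19), on the strand of the gene, with the bases facing the seed in capitals and, at 8-base sites, the A after them.
CHEK1 site: cctggtgaatatagTGCTGCTAtgt
WEE1 site 1: ccactgtggtggtgTGCTGCTtata
WEE1 site 2: ttgccttgtgaattTGCTGCTAttt
CDC25A site 1: aagttacacagaaaTGCTGCTggcc
CDC25A site 2: tgtggtactggggcTGCTGCTAttt
CLSPN site 1: tttgaattaattttTGCTGCTtaat
CLSPN site 2: gaactgagcatcagTGCTGCTttgg
The *CHEK1* site lay at chr11:125525253-125525259, at base 38 of a 3′UTR of 1827 bases, and in the 3′UTR of 6 of 13 annotated coding transcripts. The *WEE1* sites lay at chr11:9610414-9610420 and chr11:9610693-9610699, at bases 265 and 544 of 1383. The *CDC25A* sites lay on the minus strand at chr3:48200064-48200070 and chr3:48199755-48199761, at bases 365 and 674 of 1799. The second of these overlaps a 6-base match at base 672. The *CLSPN* sites lay on the minus strand at chr1:36200898-36200904 and chr1:36200476-36200482, at bases 1193 and 1615 of 4384, in 1 of 4 annotated coding transcripts. In the first *WEE1* site pairing went on without a break to position 10 of *miR-195* and to position 11 of *miR-497*. In the other 6 windows it ended at position 8 or 9 of both.

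**Figure D1:**
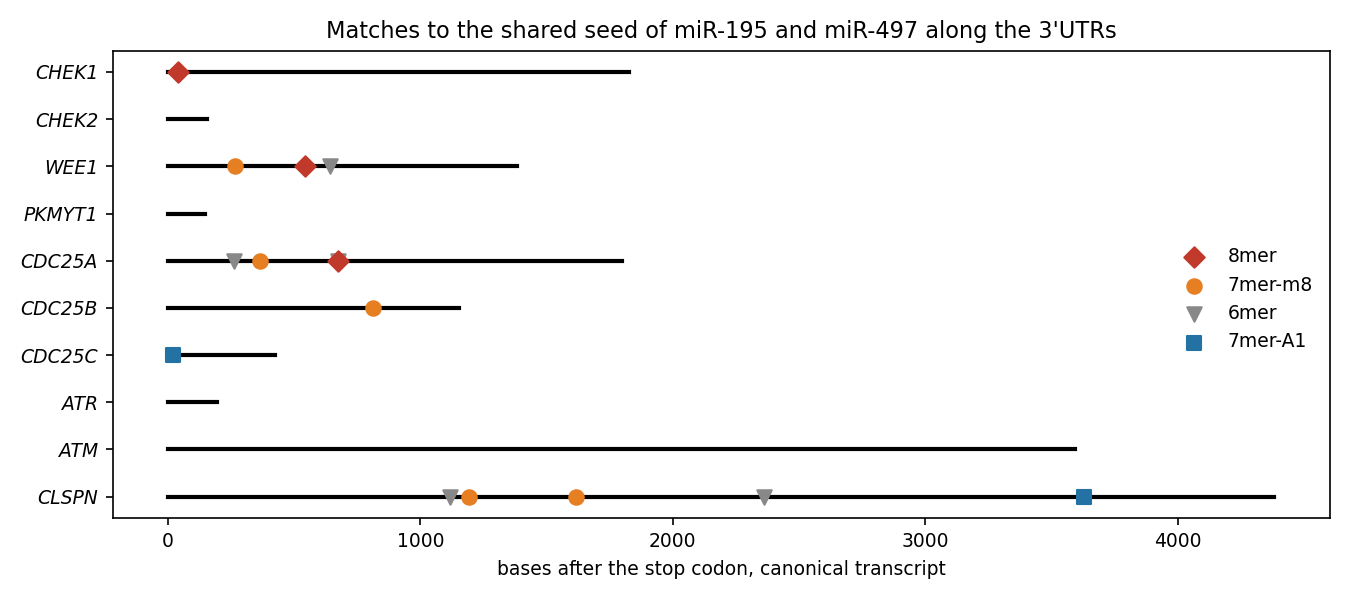
Seed matches along the 3′UTR of the canonical transcript of each gene, with the distance from the stop codon in bases on the horizontal axis. The 8-base sites (8mer) are in *CHEK1*, *WEE1* and *CDC25A*, *CDC25B* and *CLSPN* hold 7-base sites pairing with the whole seed (7mer-m8), and the lines of *CHEK2*, *PKMYT1*, *ATR* and *ATM* hold no mark.

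Abundance was deposited as RPKM, which scales the reads of a gene by its length and by the mapped reads of its library. The depths implied by the values were 24800000 to 31000000 mapped reads for total RNA and 10700000 to 16900000 for Ago2-IP. Whole read numbers could be inferred for 8 of the 10 genes, and for *CDC25C* and *PKMYT1* they were estimated from an annotated length. For *ATM* the inferred numbers imply a shorter transcript than annotated, so its intervals may be too wide. The 95% intervals given here rest on these reads and cover counting error only, since PCR copies are not independent and no culture was repeated. Of the 7 hepatocyte genes taken to check the label, 6 were at 25.3 RPKM or more in all 3 total RNA libraries, with *AFP* at 4295 to 4884 and *ALB* at 53.4 to 61.4 RPKM, and *TTR* was low at 1.52 to 4.81 RPKM, while the leukocyte gene *PTPRC* was listed at 0 and *COL1A1* and *PECAM1* stayed under 0.413 RPKM.

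In total RNA of NT cells the checkpoint genes were moderately abundant, and per length *CHEK2* was the highest and *PKMYT1* the lowest. *CHEK2* stood at 26.5 RPKM (25.1 to 28.0) and *CHEK1* at 22.9 RPKM (21.9 to 24.0), above 79.4% and 76.2% of the 13298 genes with a value above 0 in all 6 libraries. *CDC25A* followed at 18.6 RPKM, *CDC25B* at 16.8, *WEE1* at 14.8, *ATM* at 14.4, *CDC25C* at 12.0, *CLSPN* at 9.96, *ATR* at 8.35 and *PKMYT1* at 4.15 RPKM. The median of the 13298 genes was 7.76 RPKM, under which only *PKMYT1* lay. The counting intervals of neighbours in this order were separate except for *WEE1* (14.1 to 15.6) and *ATM*, whose levels did not differ beyond counting error.

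In Ago2-IP of NT cells the order was another one, led by *WEE1* at 14.8 RPKM (14.0 to 15.8) and *ATM* at 12.0 RPKM (11.4 to 12.7). *CDC25A* was at 8.45 RPKM, *ATR* at 6.14, *CHEK1* at 5.11, *CHEK2* at 4.96, *CDC25C* at 3.60, *CDC25B* at 3.43, *CLSPN* at 3.08 and *PKMYT1* at 1.94. From *ATR* down to *CLSPN* the interval of each gene overlapped that of the next, so their order did not go beyond counting error step by step. Across the 13298 genes the median ratio of Ago2-IP to total RNA was 0.314. The ratio was 1.0 for *WEE1*, 0.838 for *ATM* and 0.734 for *ATR*, which is 3.19-fold, 2.67-fold and 2.34-fold the median gene, and it was 0.187 for *CHEK2* and 0.204 for *CDC25B*, which is 0.596-fold and 0.650-fold the median gene. Genes with a seed match in a 3′UTR stood near both ends of this order (*WEE1* and *CDC25B*), as did genes without one (*ATM* and *CHEK2*). Which libraries had poly-A selection is not given in the sources used here, and a difference in it between Ago2-IP and total RNA would enter these ratios.

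**Figure D2:**
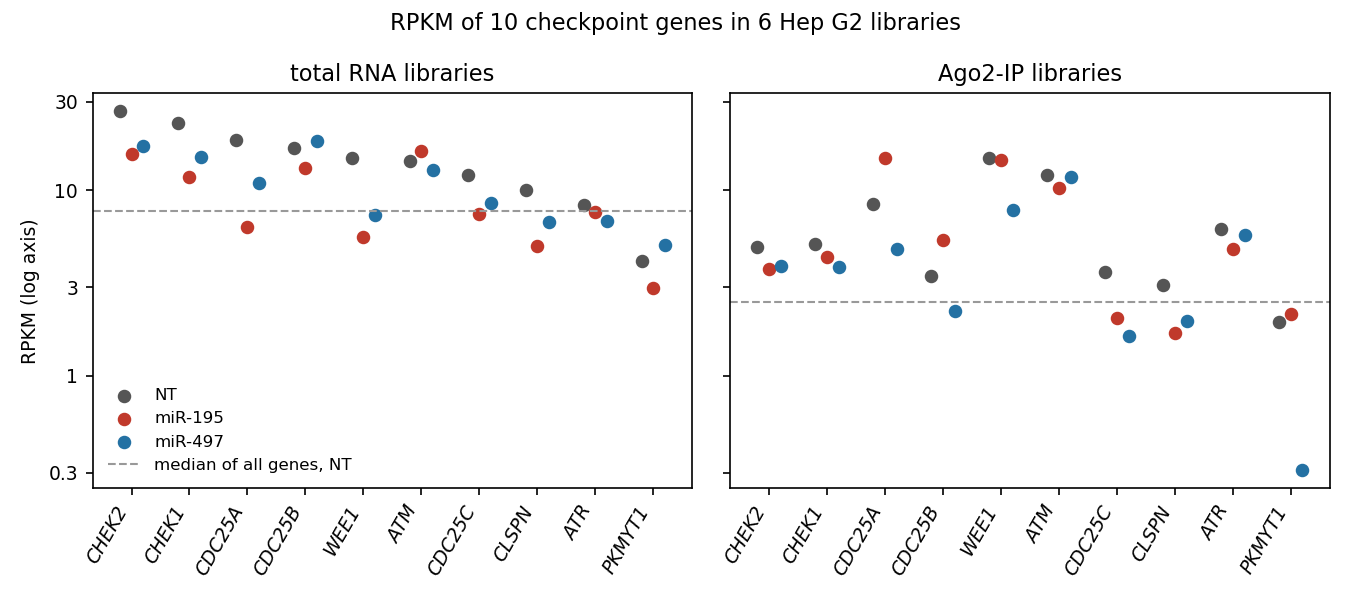
RPKM on a log axis of the 10 genes in the 3 total RNA libraries (left) and the 3 Ago2-IP libraries (right), 1 point a library, with the dashed line at the median of the 13298 genes in NT. In total RNA the NT point is the highest of the 3 for *CHEK1*, *CHEK2*, *WEE1*, *CDC25A*, *CDC25C*, *CLSPN* and *ATR*, and in Ago2-IP the *CDC25A* point of *miR-195* (14.9 RPKM) is above NT (8.45 RPKM).

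Changes are given as the log2 ratio of RPKM after the median log2 ratio of the 13298 genes was taken off (centred log2 change), because the Ago2-IP libraries differed as a whole. For *miR-195* the median taken off was 0.02 in total RNA and 0.49 in Ago2-IP, and for *miR-497* it was 0.09 and -0.23. A gene was counted as lower or higher when its centred change was past 1.5-fold. With 1 library a group this is a rule of size, and counts are set against the share of all 13298 genes that met it.

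In total RNA 6 of the 10 genes were lower with *miR-195*, where 7.6% of all genes were, and 0 were higher, where 10.4% of all genes were. With *miR-497* the same 6 were lower against 6.08% of all genes, and 0 were higher against 13.1%. The 6 genes were *CHEK1*, *CHEK2*, *WEE1*, *CDC25A*, *CDC25C* and *CLSPN*. With *miR-497* the call held for 4 of them, *CHEK1*, *CHEK2*, *WEE1* and *CDC25A*, when the median was not taken off (4.22% of all genes), and *CDC25C* and *CLSPN* then lay inside 1.5-fold. They include the checkpoint kinases and the adaptor that CHEK1 needs, one kinase that restrains CDKs and a pair of phosphatases that release them, so members with opposed roles were lower side by side. Over all 10 genes the median centred log2 change was -0.75 for the *miR-195* mimic and -0.62 for the other one. In bulk RNA fewer cells of a kind, such as cells in one phase of the cycle, and less RNA per cell cannot be told apart.

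*CHEK1*, the kinase activated by ATR, measured 22.9 RPKM in total RNA of NT cells, against 11.8 after *miR-195* and 15.1 after *miR-497*. Both mimic libraries were below NT, at 0.514-fold and 0.659-fold before centring, and the centred log2 changes were -0.98 (-1.08 to -0.87) and -0.69 (-0.79 to -0.59). *CHEK2*, the kinase activated by ATM, measured 26.5, 15.6 and 17.2 RPKM in the same order. It had no seed match in a 3′UTR, and its centred changes of -0.78 (-0.91 to -0.66) and -0.71 (-0.83 to -0.60) had intervals that overlapped each other. *CLSPN*, the adaptor through which ATR reaches CHEK1, measured 9.96, 5.02 and 6.75 RPKM. Its centred changes were -1.01 (-1.11 to -0.91) and -0.65 (-0.74 to -0.56).

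*WEE1*, the nuclear kinase that inhibits CDKs, measured 14.8 RPKM in NT, 5.60 with *miR-195* and 7.31 with *miR-497*. On the centred scale *WEE1* was lower by 2.68-fold and 2.15-fold, with centred log2 changes of -1.42 (-1.55 to -1.29) and -1.11 (-1.23 to -0.99). Among the 13298 genes 0.534% and 0.985% had a change further down. *PKMYT1*, the membrane-bound kinase with a related role, was the weakest expressed of the set and measured 4.15, 2.98 and 5.07 RPKM. Its centred changes of -0.49 (-0.78 to -0.21) and 0.20 (-0.05 to 0.45) stayed within 1.5-fold and had opposite signs, and the second interval included 0.

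*CDC25A*, the phosphatase that acts at entry into S phase and again at mitosis, measured 18.6 RPKM in NT, 6.31 with *miR-195* and 10.9 with *miR-497*. On the centred scale *CDC25A* was lower by 2.98-fold with *miR-195*, the largest change among the 10 genes in total RNA, and by 1.80-fold with *miR-497*. The centred log2 changes were -1.57 (-1.7 to -1.45) and -0.85 (-0.96 to -0.75), with 0.414% and 2.05% of all genes further down. *CDC25C*, a phosphatase of mitotic entry, measured 12.0, 7.41 and 8.50 RPKM. Its centred changes of -0.71 (-0.89 to -0.54) and -0.59 (-0.75 to -0.42) passed the threshold by little, and the second lay at the threshold with an interval on both sides of it. *CDC25B*, which starts CDK activation before mitosis, measured 16.8, 13.2 and 18.4 RPKM, lower than NT with one mimic and higher with the other. Its centred changes of -0.37 (-0.47 to -0.26) and 0.05 (-0.05 to 0.14) were within 1.5-fold although its 3′UTR holds TGCTGCT at base 813 (chr20:3786421-3786427 of GRCh37), and the direction of the second is not separated from 0.

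The sensor kinases stayed within 1.5-fold in total RNA. *ATR* measured 8.35 RPKM in NT, 7.62 with *miR-195* and 6.81 with *miR-497*, with centred changes of -0.15 (-0.24 to -0.05) and -0.38 (-0.48 to -0.29). *ATM* measured 14.4, 16.2 and 12.9 RPKM, with centred changes of 0.16 (0.08 to 0.24) and -0.25 (-0.33 to -0.17). Unlike the 6 lower genes, *ATR* was nearer to NT with *miR-195* than with *miR-497*, and *ATM* was above NT with *miR-195*.

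**Figure D3:**
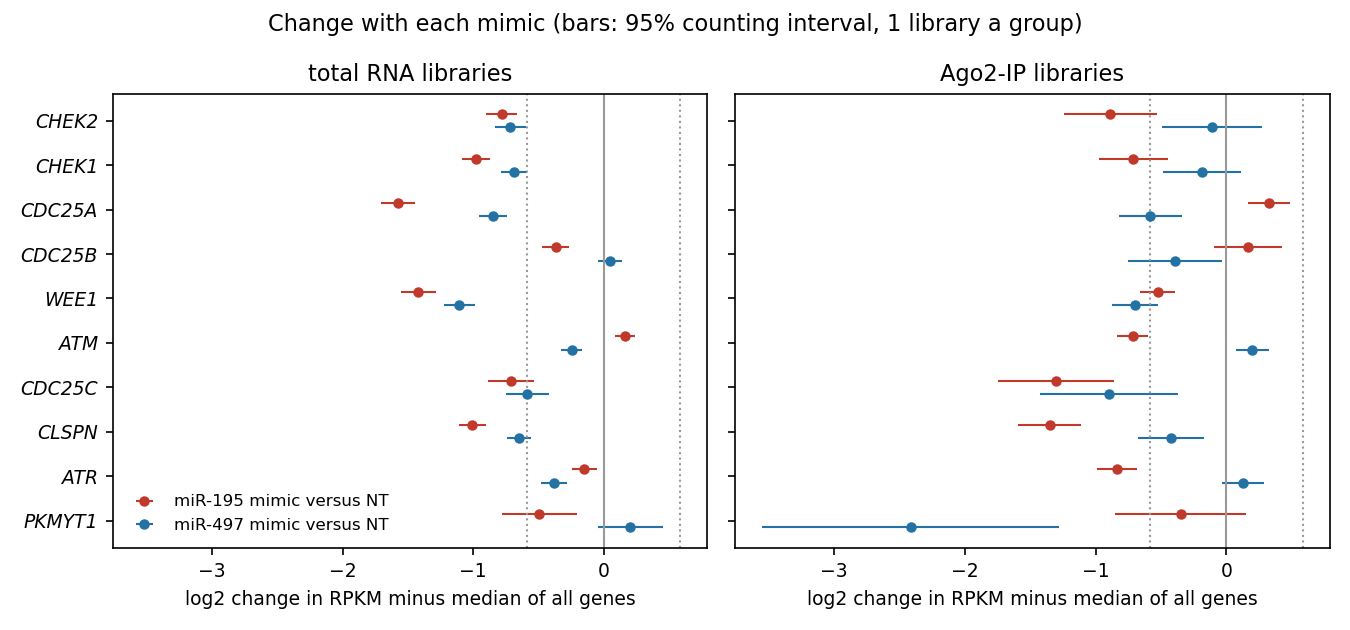
Centred log2 change against NT with *miR-195* (red) and *miR-497* (blue) in total RNA (left) and Ago2-IP (right), 1 library a group, with bars for the 95% counting interval and dotted lines at 1.5-fold. In total RNA the points of *WEE1* and *CDC25A* lie furthest to the left, at -1.42 and -1.57 with *miR-195*, and in Ago2-IP *PKMYT1* with *miR-497* lies at -2.42 with an interval of -3.55 to -1.28.

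In Ago2-IP the 2 mimics gave different counts, and the libraries of both mimics held fewer reads than that of NT. With *miR-195* 6 of the 10 genes were lower, where 17.0% of all genes were, and 0 were higher, where 20.4% were. Without taking off the median 2 were lower, against 5.06% of all genes, and 2 were higher, against 44.4%. With *miR-497* 3 of 10 were lower against 9.78% of all genes and 0 were higher against 10.8%, and without taking off the median 6 were lower, against 19.1%. The median centred change of the 10 genes was -0.71 and -0.41.

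*CDC25A* was the gene whose Ago2-IP and total RNA values diverged most with *miR-195*. Its Ago2-IP values were 8.45 RPKM in NT, 14.9 with *miR-195* and 4.81 with *miR-497*, resting on 527, 750 and 190 reads. It was thus higher than NT in the precipitate with *miR-195* (1.76-fold, and 0.32 on the centred log2 scale, 0.16 to 0.49) while it was lower in total RNA, and with *miR-497* it was below NT in both (-0.58 on the centred scale, -0.82 to -0.34, just inside the threshold at 1.49-fold). *CDC25B* showed the same order at 3.43, 5.40 and 2.22 RPKM. Its centred changes were 0.16 (-0.09 to 0.42) and -0.39 (-0.75 to -0.03), both within 1.5-fold. *CDC25C*, at 3.60, 2.05 and 1.64 RPKM on about 127, 59 and 37 reads, was past 1.5-fold lower with each mimic (-1.30 and -0.90), so the 3 phosphatases did not move together in the precipitate.

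*WEE1* stayed near its NT level in Ago2-IP with *miR-195*, at 14.8 RPKM in NT and 14.5 with *miR-195*, and was at 7.79 RPKM with *miR-497*. Its centred changes were -0.53 (-0.66 to -0.39) and -0.70 (-0.88 to -0.52), of which the second was past 1.5-fold. *PKMYT1* measured 1.94, 2.14 and 0.310 RPKM, and the last value rests on about 7 reads. Its centred change of -2.42 (-3.55 to -1.28) with *miR-497* was the lowest of the set and also the least precise.

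*CHEK1* measured 5.11, 4.38 and 3.83 RPKM in Ago2-IP, with centred changes of -0.71 and -0.18. *CHEK2* measured 4.96, 3.77 and 3.92 RPKM, with centred changes of -0.89 and -0.11. For both kinases the centred change was past 1.5-fold with *miR-195* alone, and the centred interval with *miR-497* included 0. Without taking off the median neither was past 1.5-fold with either mimic, at -0.22 and -0.41 for *CHEK1* and -0.40 and -0.34 for *CHEK2*, and the order of the mimics for *CHEK1* turned. *CLSPN* measured 3.08, 1.7 and 1.96 RPKM, and with *miR-195* its centred change of -1.35 (-1.59 to -1.11) was the lowest of the 10. With *miR-497* it was -0.42 (-0.67 to -0.17). *ATR* measured 6.14, 4.83 and 5.71 RPKM and *ATM* 12.0, 10.3 and 11.8 RPKM. With *miR-195* both were past 1.5-fold lower on the centred scale (-0.83 and -0.72), and with *miR-497* their centred changes were 0.13 and 0.20, which turn to -0.10 and -0.03 when the median is not taken off.

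The fold enrichment score of the study combines both kinds of library, as the ratio of Ago2-IP to total RNA with a mimic divided by that ratio in NT. For *miR-195* its median over the 13298 genes was 1.38, and for *miR-497* 0.822. With *miR-195* 2 of the 10 genes scored past 1.5-fold above the median, against 18.1% of all genes, and 2 below it, against 16.2%. The higher ones were *CDC25A*, with a score of 5.18 (4.49 to 5.97), above that of 98.1% of all genes, and *WEE1* with 2.58 (2.27 to 2.94). Without centring, the Ago2-IP log2 change with *miR-195* was 0.81 for *CDC25A* and -0.04 for *WEE1*. The *WEE1* score thus came from its total RNA change of -1.40, since a fall there raises the score. For *CDC25A* the total RNA change was -1.56, so its score also came more from total RNA than from Ago2-IP. The lower ones were *ATR* with 0.864 and *ATM* with 0.757. Set against a score of 1 in place of the median, 5 genes were past 1.5-fold higher (41.8% of all genes) and 0 lower (5.79%), so that the calls of *ATR* and *ATM* ended. With *miR-497* 0 genes scored past 1.5-fold above the median, against 12.3% of all genes, and 1 below it, against 20.5%. That one was *PKMYT1* at 0.131 (0.0583 to 0.293), on the 7 reads named above. Against a score of 1, 3 genes were lower with *miR-497* (32.7% of all genes).

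The score of the other genes stayed within 1.5-fold of the median. The scores of *CHEK1* were 1.67 (*miR-195*) and 1.14 (*miR-497*), and those of *CDC25B* were 2.01 and 0.591. *CHEK2* scored 1.29 and 1.22, *CLSPN* 1.09 and 0.938, and *CDC25C* 0.923 and 0.645. *CHEK1*, *CHEK2*, *CLSPN* and *CDC25C* thus scored within 1.5-fold of the median gene with both mimics while their total RNA was lower with both. For *CDC25C* with *miR-195* the centred log2 score of -0.58 (-1.06 to -0.10) lay just inside the threshold. With upper-quartile centring the count of lower scores for *miR-195* was 3 (17.8% of all genes). With *miR-497* *WEE1* scored 1.06 and *CDC25A* 0.966, both above the median score although *CDC25A* was under 1. The interval of the centred log2 score included 0 for *CDC25A* (-0.03 to 0.49) and not for *WEE1* (0.16 to 0.59).

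**Figure D4:**
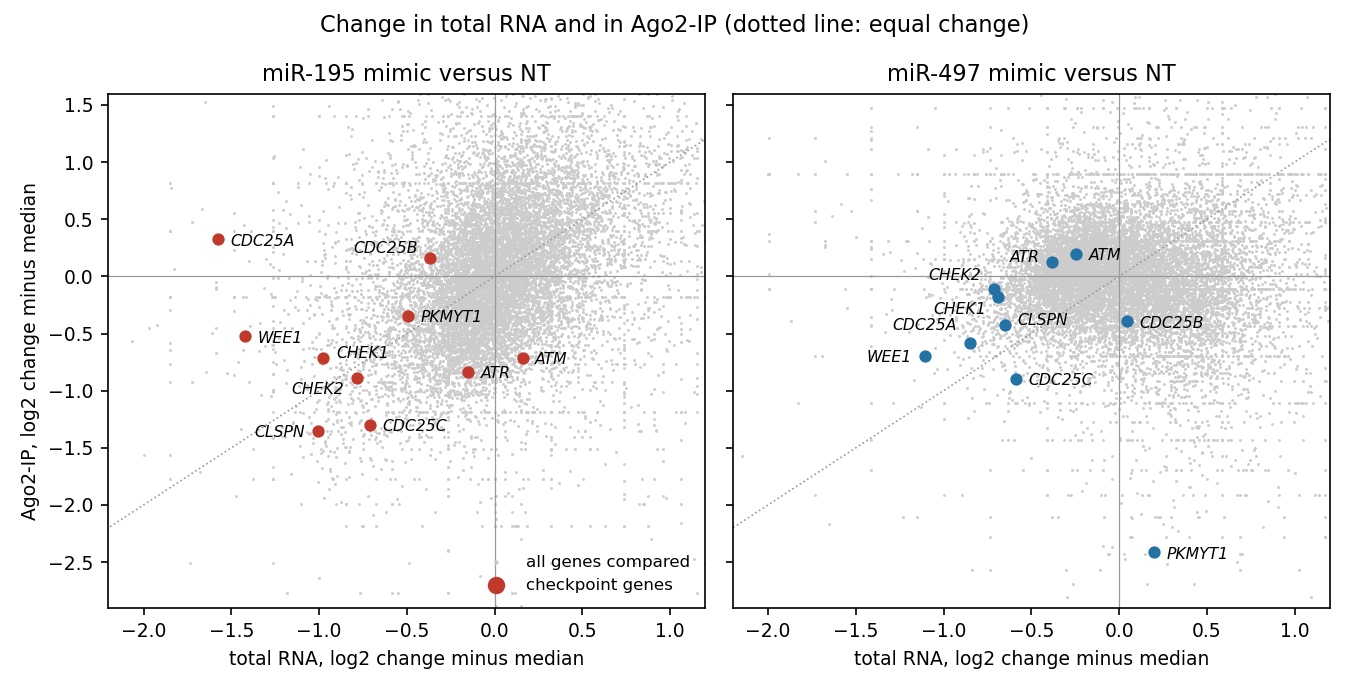
Centred log2 change in total RNA (horizontal) against that in Ago2-IP (vertical) for *miR-195* (left) and *miR-497* (right), with all 13298 genes in grey, of which 726 and 544 lie beyond the axes, and the 10 genes in colour. Points above the dotted line have a fold enrichment score above the median, as *CDC25A* and *WEE1* with *miR-195*, and *PKMYT1* with *miR-497* lies far below it.

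The mimics were also set against each other, which leaves the NT libraries out. In total RNA 2 of the 10 genes were past 1.5-fold lower with *miR-195* than with *miR-497*, against 6.27% of all genes, and 0 were higher, against 4.79%. These were *CDC25A*, at -0.72 (-0.85 to -0.58), and *PKMYT1*, at -0.69 (-0.95 to -0.43). Of the other 8 genes 6 were lower with *miR-195* by less than 1.5-fold, with intervals including 0 for *CHEK2* and *CDC25C*, and *ATR* and *ATM* were higher, at 0.24 and 0.41. In Ago2-IP 4 of 10 were lower with *miR-195* than with *miR-497*, against 20.6% of all genes, and 2 were higher, against 23.9%. The lower ones were *CHEK2* (-0.76), *ATR* (-0.94), *ATM* (-0.89) and *CLSPN* (-0.91), and the higher ones were *CDC25A* at 0.93 (0.70 to 1.16) and *PKMYT1* at 2.09 (0.95 to 3.23). The median taken off here was 0.70, and without it 0 of the 10 were past 1.5-fold lower, against 3.50% of all genes, and 4 were higher, against 56.9%.

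Among the 5 carriers of a TGCTGCT site all but *CDC25B* were past 1.5-fold lower in total RNA with each mimic, and among the 5 others *CHEK2* and *CDC25C* were. Of all 13298 genes, whatever their sites, 7.6% (*miR-195*) and 6.08% (*miR-497*) were. This share was not counted apart for genes with and without the site. For *miR-497* the calls of *CLSPN* and *CDC25C* ended when the median was not taken off, at -0.56 and -0.50. The 5 genes with the site had a median centred log2 change of -1.01 with *miR-195* (-1.57 to -0.37) and -0.69 with *miR-497* (-1.11 to 0.05). The 5 genes without it had medians of -0.49 (-0.78 to 0.16) and -0.38 (-0.71 to 0.20). The ranges overlap, since *CHEK2* and *CDC25C* without the site were lower than *CDC25B* with it. Over all genes the medians were -0.08 for the 3102 with the site, with either mimic, and 0.02 and 0.01 for the 7828 without it.

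Other genes of the pathway were grouped as sensors and adaptors of ATR and ATM, as CDKs and cyclins on which the set acts, and as proteins that bind, phosphorylate or degrade CDC25 and WEE1. Of 33 such genes 32 had a value above 0 in all 6 libraries. In total RNA 10 of the 32 were past 1.5-fold lower with *miR-195* (7.6% of all genes) and 0 higher (10.4%), and with *miR-497* 7 were lower (6.08%) and 1 was higher (13.1%). The CDKs and cyclins held the largest share, 5 of 7 lower with *miR-195* and 4 of 7 with *miR-497*. Of the sensors and adaptors 2 of 14 were lower with each mimic, and of the proteins acting on CDC25 and WEE1 3 of 11 and 1 of 11 were lower and 0 and 1 higher. Without taking off the median *TOPBP1*, *RAD17* and *CCNE2* lay inside 1.5-fold with *miR-497* (-0.50, -0.51 and -0.53), and *MRE11A* did with *miR-195* (-0.57). In Ago2-IP 13 of the 32 were lower and 4 higher with *miR-195* (17.0% and 20.4% of all genes). With *miR-497* 5 were lower and 0 higher (9.78% and 10.8%). The sensors and adaptors made up 9 and 1 of these lower genes. The Ago2-IP counts were not repeated without centring.

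*CCNE1*, the cyclin that drives CDK2 at entry into S phase, measured 21.0 RPKM in NT total RNA, 6.76 after *miR-195* and 10.2 after *miR-497*, and in the precipitates 8.53, 34.5 and 9.74 RPKM. Like *CDC25A* it was lower in total RNA with both mimics (-1.65 and -1.12 centred) and higher than NT in the *miR-195* precipitate (1.53 centred). *CDK1*, the kinase that WEE1 and PKMYT1 inhibit, measured 78.3, 34.2 and 44.0 RPKM in total RNA (-1.21 and -0.92). Its Ago2-IP values of 7.59, 4.04 and 6.27 RPKM were lower with *miR-195* (-1.40) and near NT on the centred scale with *miR-497* (-0.04). *CCNA2* measured 105, 55.9 and 65.3 RPKM in total RNA (-0.93 and -0.78), and *CCNB1*, the mitotic partner of CDK1, 131, 74.4 and 94.0 RPKM (-0.83 and -0.57, the second within 1.5-fold). *CDK2* at 23.0, 15.7 and 20.6 RPKM stayed within 1.5-fold with each mimic (-0.57 and -0.24).

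*BTRC*, the F-box protein that marks CDC25A and WEE1 for degradation, measured 9.23 RPKM in NT total RNA, 4.37 after *miR-195* and 5.90 after *miR-497* (-1.10 and -0.73). *PLK1*, a mitotic kinase that acts on CDC25C and WEE1, measured 73.6, 41.5 and 67.1 RPKM and was past 1.5-fold lower with *miR-195* alone (-0.85 and -0.22). *TOPBP1*, an activator of ATR, measured 27.5, 18.3 and 19.4 RPKM (-0.61 and -0.59). Both changes lay near the threshold, with intervals on both sides of it (-0.68 to -0.54 and -0.66 to -0.52), and the second was -0.50 without centring. On the centred scale *TOPBP1* was the only further gene of the list past 1.5-fold in the same direction with both mimics, since the sensors *MRE11A* and *RAD17* passed with one mimic each.

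The genes most like *CHEK1*, *WEE1* and *CDC25A* were sought among the 8582 genes with at least 1 RPKM in all 6 libraries, by the Euclidean distance over the 4 centred log2 changes against NT. Nearest to *CHEK1* were *KIF5B* (distance 0.11), *ENTPD7* (0.17) and *SKA3* (0.20). Nearest to *WEE1* were *EPB41L4B* (0.21), *OIP5* (0.29) and *RPS6KA3* (0.37). *CDC25A* had no neighbour as close, and the nearest to it were *CDCA4* (0.38), *RFK* (0.46) and *CCND3* (0.50), a cyclin of the G1 phase. Like *CDC25A*, *CCND3* and the *CCNE1* and *BTRC* described above had been reported by the authors as direct targets of both miRNAs, in part from these libraries.

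Neighbouring and copied genes limit some of these values. How the reads were assigned to overlapping genes, and whether strand was kept, is not given in the sources used here. Exons of *PKMYT1* share 1228 bases with *PAQR4* and 357 bases with *KREMEN2* on the opposite strand, and exons of *CDC25C* share 293 bases with *FAM53C*. *WEE1*, the highest of the set in Ago2-IP of NT cells, shares 311 bases with RN7SL56P and 104 bases with snoU13 on its own strand. *CHEK1* shares 53 bases with *STT3A* on its own strand and 751 bases with a lncRNA on the opposite one, *CHEK2* shares 293 bases with *HSCB*, *ATM* shares 124 bases with *C11orf65* and 102 bases with a Y RNA, and *CLSPN* shares 280 bases with a lncRNA. *ATR* shares 2048 bases with the pseudogene *EIF2AK1P1* on the opposite strand, and *CHEK2* and *WEE1* have pseudogene copies elsewhere in the genome, so their values are uncertain to that extent.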

How the data were processed

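The deposited values are RPKM for each gene and library, which the authors obtained with CASAVA 1.7 from single reads of 36 bases placed on hg19 by ELANDv2. The annotation, the treatment of strand and which libraries had poly-A selection are not given in the sources used here. All 6 value columns were matched to a library (0 unmatched), and the lines of 28 symbols listed more than once were averaged (none is a checkpoint gene).

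Log2 ratios were formed without a pseudocount for the 13298 genes above 0 in all 6 libraries, and their median was taken off. Whole reads were inferred from the ratios of RPKM between libraries for 13686 of 15487 genes tried (88.4%), as the smallest whole numbers in that ratio, and the implied lengths lay within 1.5-fold of the annotated one for 79.6% of 11150 genes. From these reads 95% counting intervals were set on the log scale. On simulated reads of 10774 genes whole numbers were inferred for 99.6%, more than in the data, and 98.1% of these equalled the simulated ones. In the simulated comparison of *miR-195* with NT in total RNA 100% of 200 genes lowered 2-fold passed 1.5-fold. That was nearly fixed by the setting, since the lowered genes were taken above a minimum level and the reads carried counting error only. Seed matches were searched in the 3′UTRs of protein-coding transcripts of GENCODE release 44 on GRCh37. Alternatives were pseudocounts of 0.1 and 1, a minimum of 1 RPKM, no centring, upper-quartile centring, 2-fold as the threshold and sites of 6 and 8 bases or in canonical 3′UTRs only.

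The genes, the pathway list and the comparisons were chosen with earlier results of these data known. Of the pathway list, 7 genes were chosen by name, and others were named if past 1.5-fold in one direction with both mimics. *MRE11A*, *RAD17* and *CCNE2* were named after their values were seen. Python 3.11.15, numpy 2.4.6, pandas 2.3.3 and matplotlib 3.10.9 were used.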

Additional observations from a re-analysis of the deposited data

Results flagged for a closer look

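For 6 measures the centred log2 change had opposite signs with the 2 mimics while both counting intervals left out 0. With 1 library a condition and shared NT libraries these differences were not tested. *ATM* differed in total RNA (0.16 with *miR-195*, -0.25 with *miR-497*), in Ago2-IP (-0.72 and 0.20) and in the fold enrichment score (-0.87 and 0.41). *ATR*, the other sensor kinase, differed in the score (-0.68 and 0.47). *CDC25A* differed in Ago2-IP (0.32 and -0.58) and *CDC25B* in the score (0.54 and -0.48). Of these values, those past 1.5-fold were the Ago2-IP change of *ATM* and the scores of *ATM* and *ATR*, each with *miR-195*. Without taking off the median the Ago2-IP changes of *ATM* were -0.23 and -0.03, of one sign.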

How the results depend on the processing

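Among the changes and scores past 1.5-fold no value changed sign. The ratio of Ago2-IP to total RNA in NT was recomputed with a pseudocount of 1 only, and its log2 for *ATM* and *ATR* is -0.26 and -0.45 without centring, against 1.42 and 1.23. Shares in brackets are those of all genes compared. In total RNA with *miR-195* the count of 6 lower genes held under every alternative but 2-fold. With 2-fold as the threshold, total RNA gave 3 lower genes (1.99%) for *miR-195* and 1 (1.19%) for *miR-497*, Ago2-IP gave 2 (6.12%) and 1 (3.74%), 0 were lower (6.24%) and 1 higher (8.29%) in the score of *miR-195*, and between the mimics 0 were lower in total RNA (1.71%) and 0 lower (8.59%) and 1 higher (11.8%) in Ago2-IP. Without centring, 2 were lower (5.06%) and 2 higher (44.4%) in Ago2-IP with *miR-195* and 6 lower (19.1%) with *miR-497*, the score gave 0 lower (5.79%) and 5 higher (41.8%) with *miR-195* and 3 lower (32.7%) with *miR-497*, and Ago2-IP between the mimics gave 0 lower (3.50%) and 4 higher (56.9%). With a pseudocount of 1, 3 were lower in Ago2-IP (5.05%) and 1 in the score (4.03%) with *miR-195*, and between the mimics total RNA gave 1 lower gene (1.98%) and Ago2-IP 2 (6.34%). With a minimum of 1 RPKM *PKMYT1* dropped out, which left 0 lower scores (14.8%) with *miR-497* and 1 lower gene (2.69%) in total RNA between the mimics. The site of 8 bases was present in 3 genes. In total RNA with *miR-497* the count of lower genes was 5 (4.38%) with a pseudocount of 0.1 and 4 with a pseudocount of 1 (2.19%), a minimum of 1 RPKM (2.78%), no centring (4.22%) or upper-quartile centring (4.56%). Of the values of single genes 333 moved by less than the half-width of their counting interval and 69 by more, of which 36 without centring, 27 with a pseudocount of 1, 5 with a minimum of 1 RPKM and 1 with the upper quartile. No replicate could be left out, and no paired analysis was possible because each condition has 1 library of a kind.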
